A study of Homo sapiens and Mus musculus with 36 samples.

Results

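The cytosolic ribosomal protein genes were followed through 4 tumour cell lines in which the histone H3 lysine methyltransferase gene DOT1L (Dot1l in mouse) had been targeted with guide RNAs. Members were taken by gene symbol: RPL and RPS genes with a number, RPLP0, RPLP1, RPLP2 and RPSA, leaving out pseudogenes, RPS6 kinase genes and RPS4Y genes. The rule found 84 of 26457 symbols in the HuH-7 guide libraries (52 of the large subunit and 32 of the small), 82 of 15899 in the HuH-7 inhibitor libraries, and 84 of 22673 in the mouse libraries (51 large, 33 small). After the filter on low counts 82 human and 79 mouse members were tested.

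RNA-seq gene counts were deposited for 36 libraries. HuH-7, a human hepatocellular carcinoma line, carried the guide sgNeg2 (labelled wild type) or DOT1L guide 1 or guide 2 (labelled knockout), each without and with IFN, with 2 libraries per group. The labels do not give the type, dose or time of IFN. In a separate set of 3 libraries each, wild-type HuH-7 cells received DMSO or EPZ-5676, an inhibitor of the DOT1L enzyme, for 7 days. The mouse lines Hepa1-6 and Hep53.4 (labelled hepatocellular carcinoma) and LLC (labelled lung carcinoma) each carried sgNeg2 or Dot1l guide 1 or guide 2, with 2 libraries per group. All lines were grown in the same serum-containing medium. Guide 1 and guide 2 libraries were pooled as knockout (n = 4) against sgNeg2 (n = 2). The labels do not say whether libraries of a group came from separate cultures or clones, so p-values measure the spread between these libraries, which may be technical.

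Ribosomal proteins assemble with ribosomal RNA into the small subunit, which reads the messenger RNA, and the large subunit, which joins the amino acids. Their transcripts are among the most abundant of dividing cells, and vertebrate ribosomal protein mRNAs begin with a stretch of pyrimidines (the TOP motif) through which mTOR signalling and LARP1 control their translation. Growth regulators such as MYC are known to raise the production of ribosomal proteins and of the factors that build ribosomes.

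Libraries held 19580588 to 61227426 counts. DOT1L was lower in the knockout libraries of each line, with log2 changes of -1.06 in HuH-7 without IFN, -0.97 with IFN, -1.48 in Hepa1-6, -0.67 in Hep53.4 and -1.02 in LLC, each past the threshold (edgeR adjusted p at most 0.0011). Hepatocyte markers summed to 5254 to 14239 CPM (counts scaled to a common library size with TMM factors) in HuH-7 guide libraries, 12214 to 17512 CPM in Hepa1-6 and 822 to 928 CPM in Hep53.4, where Alb had 1.32 to 3.32 CPM and Apob and Hnf4a made up most of the sum. LLC libraries held at most 0.744 CPM of hepatocyte markers, and Cav1 and Col3a1 led their lung and fibroblast lists while Sftpc and Nkx2-1 were at or near 0. HuH-7 guide libraries without IFN differed in kind from all others: small nuclear and nucleolar RNA genes took 3.24% to 5.90% of their counts and histone genes 0.827% to 1.00%, against at most 0.0118% and 0.0472% in the HuH-7 libraries with IFN.

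Several members had few counts for genes of this abundance. Under 1000 counts in every library were RPL3L, RPL10L, RPL17, RPL36A, RPS9, RPS10 and RPS18 in the HuH-7 guide libraries and Rpl3l, Rpl10l, Rpl26, Rpl30, Rpl34, Rpl39l, Rps4l and Rps27 in mouse, with Rpl26 at 0 throughout. These were chosen after their values were seen. Ribosomal protein genes have many near-identical copies in the genome and some overlap other genes, and how reads with several matches were counted is not given in the sources used here, so the levels of these members are uncertain and the levels of others may miss reads.

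Members took a larger share of the counts in the mouse lines than in HuH-7. In sgNeg2 libraries the share was 4.63% and 4.75% in HuH-7 without IFN, 6.26% and 6.17% with IFN, 10.3% and 11.02% in Hepa1-6, 13.3% and 12.9% in Hep53.4 and 16.6% and 16.0% in LLC. It was 4.13% to 4.30% in HuH-7 knockout libraries without IFN, below both sgNeg2 libraries. In Hepa1-6 the knockout libraries held 11.6% to 12.2% and in Hep53.4 13.98% to 14.1%, above both of their own sgNeg2 libraries, while in LLC they held 14.2% to 15.3%, below both. The EPZ-5676 libraries held 7.68% to 7.71%, above the 7.37% to 7.44% of the DMSO libraries. The groups did not overlap in any of these 5 comparisons. These are shares of unscaled counts. TMM factors were 1.015 to 1.017 in EPZ-5676 libraries and 0.982 to 0.984 in DMSO libraries. After TMM scaling the median log2 change of the members with EPZ-5676 was 0.01, with calls in both directions. With IFN, guide 1 libraries of HuH-7 lay below sgNeg2 (5.55% and 5.63%) and guide 2 libraries above it (6.52% and 6.56%).

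**Figure D1:**
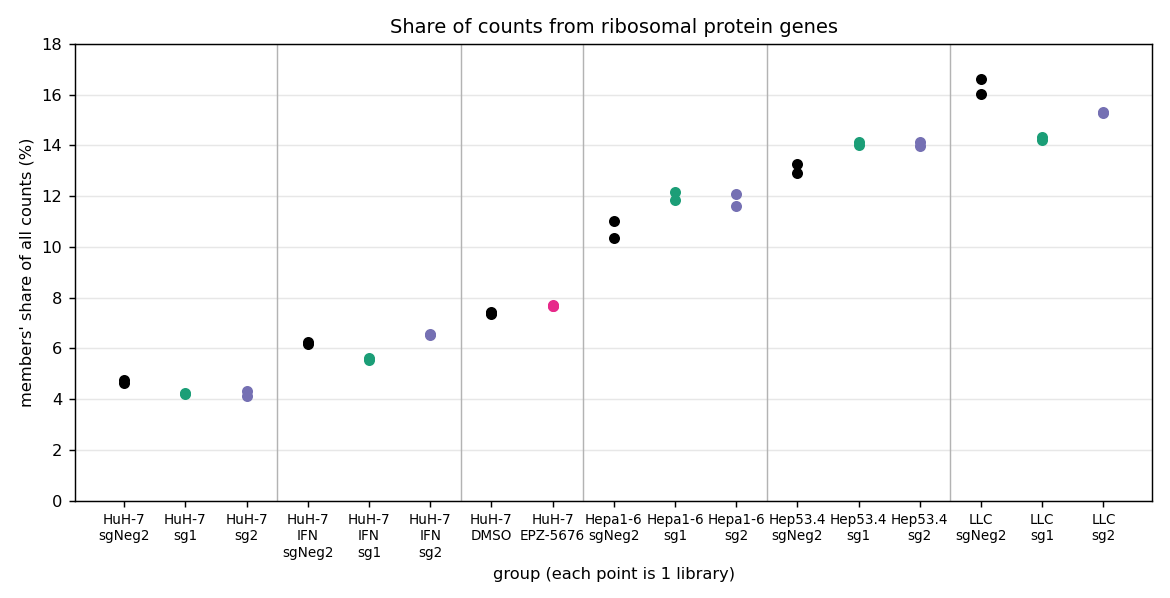
Share of all counts that came from cytosolic ribosomal protein genes, in percent, with 1 point per library and black for sgNeg2 and DMSO, green for guide 1, violet for guide 2 and pink for EPZ-5676. Knockout libraries lay above sgNeg2 in Hepa1-6 (from 11.6%) and Hep53.4 (from 13.98%) and below it in LLC (up to 15.3%).

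In untreated HuH-7 cells the DOT1L knockout was compared with sgNeg2, and the members that changed all fell. Of 82 members 15 fell and 0 rose, where 4.38% of all 16448 genes fell and 6.95% rose (edgeR; 31 members fell and 3 rose at an unadjusted p under 0.05, and 27 fell and 0 rose with DESeq2). Of the 15, 9 belonged to the large subunit and 6 to the small. The median log2 change was -0.17 over the members, against 0.00 over all genes, and 13 of the 82 values lay above 0.

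RPSA, a small-subunit protein also known as the laminin receptor precursor, had 1378 and 1410 CPM in sgNeg2, 1034 and 1013 CPM with guide 1 and 1144 and 998 CPM with guide 2. All 4 knockout libraries lay below both controls, a log2 change of -0.41 ± 0.07 (SE; adjusted p = 0.00272). RPL13A, a large-subunit protein that can also leave the ribosome to silence translation of inflammatory mRNAs, had 1402 and 1441 CPM in sgNeg2 and 992, 1030, 1074 and 920 CPM in the knockout. Its groups did not overlap either (-0.50 ± 0.10, adjusted p = 0.00733). RPS2, which lies near the mRNA entrance of the small subunit, went from 724 and 720 CPM to 523, 542, 546 and 407 CPM, so that guide 2 replicate 2 was the lowest by a wide margin (-0.52 ± 0.13, adjusted p = 0.0217). RPL8, a large-subunit protein, had 660 and 688 CPM in sgNeg2 and 510, 509, 478 and 370 CPM in the knockout (-0.53 ± 0.15, adjusted p = 0.0411). RPLP0, the base of the stalk that recruits elongation factors, fell by 0.45 ± 0.12 and RPL3, which reaches towards the peptidyl transferase centre, fell by 0.36 ± 0.09 (adjusted p = 0.0236 and 0.0238). RPL5 (-0.20), RPS6 (-0.21) and RPL10 (-0.33) did not pass the test (adjusted p = 0.0521, 0.075 and 0.0643).

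Most of these calls depended on the pair of control libraries. Without sgNeg2 replicate 1 only 2 members were called and without sgNeg2 replicate 2 only 4, with medians of -0.23 and -0.17. When the guides were fitted as separate groups 38 fell and 2 rose, and RPL5, RPS6 and RPL10 then passed. In that fit guide 1 alone had 35 members below sgNeg2 and 1 above, where 8.77% of all genes were below and 9.64% above. Guide 2 alone had 37 below and 1 above (12.2% and 11.5% of all genes). RPL13A missed the threshold without sgNeg2 replicate 1 (-0.52), RPS2 (-0.51 and -0.57), RPL3 (-0.37 and -0.39) and RPLP0 (-0.42 and -0.53) without either control, and RPL8 without either control (-0.56 and -0.55), without guide 2 replicate 1 (-0.54) or replicate 2 (-0.43) and with the replicate block. The call of RPSA held without each of these 6 libraries. Members richer in GC had the more negative changes (Spearman -0.582 across 82 members, which share the libraries, against -0.277 across 15312 genes). With the trend on GC content removed 33 members fell and the median was -0.23. The share of all genes that fell in that fit is not given here. Hepatocyte markers summed to 14180 and 14239 CPM in sgNeg2 and 11768 to 13615 CPM in the knockout, with 5 of 8 called lower, and leukocyte-list genes to 93.9 and 97.7 CPM against 165 to 199 CPM, with Ptprc at or near 0. Their part in the result was not tested.

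The starts of human members were read for the pyrimidine stretch known of the class. RefSeq promoter windows (GRCh38.p14, 250 bases before to 50 after the annotated start) were matched for 67 of the 84 members. A run of at least 5 C or T letters that began at the start was present in 43 of 67 members (64.2%) and in 5.2% of 27303 promoters. The windows below, from 60 bases before the start to 20 bases into the transcript on the gene's strand, show 4 of the members that fell and then RPS27L and RPL7L1, which behaved unlike most members in the mouse lines. Capitals mark the C or T run of at least 5 letters over the start and any match to the ETS motif CCGGAAG.
RPSA: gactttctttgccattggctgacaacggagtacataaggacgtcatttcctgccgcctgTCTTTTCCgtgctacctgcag
RPL13A: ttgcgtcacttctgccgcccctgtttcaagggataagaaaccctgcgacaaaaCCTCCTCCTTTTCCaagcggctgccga
RPLP0: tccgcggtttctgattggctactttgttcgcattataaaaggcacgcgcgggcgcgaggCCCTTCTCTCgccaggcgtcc
RPL3: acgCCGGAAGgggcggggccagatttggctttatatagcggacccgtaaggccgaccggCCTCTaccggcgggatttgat
RPS27L: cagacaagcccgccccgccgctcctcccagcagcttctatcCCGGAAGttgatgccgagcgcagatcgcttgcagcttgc
RPL7L1: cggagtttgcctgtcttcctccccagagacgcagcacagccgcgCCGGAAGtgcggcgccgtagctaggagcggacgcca

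The windows lie at chr3:39406660-39406739 (RPSA, plus strand), chr19:49487548-49487627 (RPL13A, plus), chr12:120201092-120201171 (RPLP0, minus), chr22:39319604-39319683 (RPL3, minus), chr15:63157458-63157537 (RPS27L, minus) and chr6:42879556-42879635 (RPL7L1, plus). RPSA, RPL13A, RPLP0 and RPL3 had C or T runs of 8, 14, 10 and 5 letters over the start, though RPL3 had only 4 from the start itself. The longest such run was 2 letters in RPS27L and in RPL7L1. RPL4, RPL9, RPL27, RPS15 and RPS29 also had at most 2, and their mouse counterparts rose in Hep53.4 and fell in LLC with most members. The windows were picked by hand, and run length was not tested against the changes. Over the whole 300-base window, the ETS motif CCGGAAG occurred on either strand in 34.3% of members and 10.7% of promoters, the YY1 motif AANATGGC in 16.4% and 6.8%, the E box CACGTG in 6.0% and 7.4% and the TATA box TATAAA in 10.4% and 12%. On the gene strand CTTCC was found in 85.1% of members and 46.4% of promoters, and CTTTC in 58.2% and 32.7%. These are matches of letters and were not tested as binding sites.

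In HuH-7 cells that had received IFN the same comparison called fewer members. Of 82, 2 fell and 0 rose (edgeR; 5.27% of genes fell and 7.11% rose; 10 members fell and 0 rose at an unadjusted p under 0.05, and DESeq2 called 2 falls and 0 rises). The median was -0.11 over the members and -0.06 over all genes. RPSA had 2992 and 2995 CPM in sgNeg2, 2274 and 2405 CPM with guide 1 and 2575 and 2654 CPM with guide 2, all below the controls (-0.27 ± 0.07, adjusted p = 0.0262). That call ended without sgNeg2 replicate 1 or 2 (-0.27 in both) or guide 1 replicate 2 (-0.26). RPL36A, a large-subunit protein near the exit site for transfer RNA and one of the members of few counts, had 3.33 and 3.37 CPM in sgNeg2 and 2.26, 2.196, 2.03 and 2.05 CPM in the knockout (-0.65 ± 0.13, adjusted p = 0.00586). It was no longer called once sgNeg2 replicate 2 was left out (-0.64). With only the IFN-treated libraries fitted neither call held (-0.22 for RPSA and -0.59 for RPL36A). With the guides as separate groups 21 members fell, and 19 did with the GC trend removed. Shares of all genes in these fits are not given here, and those of each guide alone are in the next paragraph. RPL3 and RPLP0 had values of -0.13 and -0.14 and did not pass the test.

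The guides differed in the IFN-treated cells. Of 82 members 53 were higher and 1 was lower with guide 2 than with guide 1, where 16.8% of all genes were higher and 17.6% lower (34.4% called), and the median was 0.32 over members and 0.01 over all genes. Fitted alone, guide 1 had 56 members below sgNeg2 and 0 above (median -0.27), where 16.5% of all genes were below and 9.97% above. Guide 2 had 11 members above and 11 below (median 0.03), where 11.1% of genes were above and 19.7% below. RPL3 had 2217 and 2245 CPM with guide 1, 2744 and 2814 CPM with guide 2 and 2764 and 2714 CPM in sgNeg2, so guide 1 libraries were lower and guide 2 libraries overlapped the controls. RPS2 had 1423 and 1482 CPM with guide 1, 1864 and 1935 CPM with guide 2, and 1872 and 1829 CPM in sgNeg2. DOT1L itself had 42.5 and 46.5 CPM with guide 1 and 66.8 and 66.7 CPM with guide 2, and its part in the guide difference was not tested. Without IFN the median of guide 2 over guide 1 was 0.01.

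**Figure D2:**
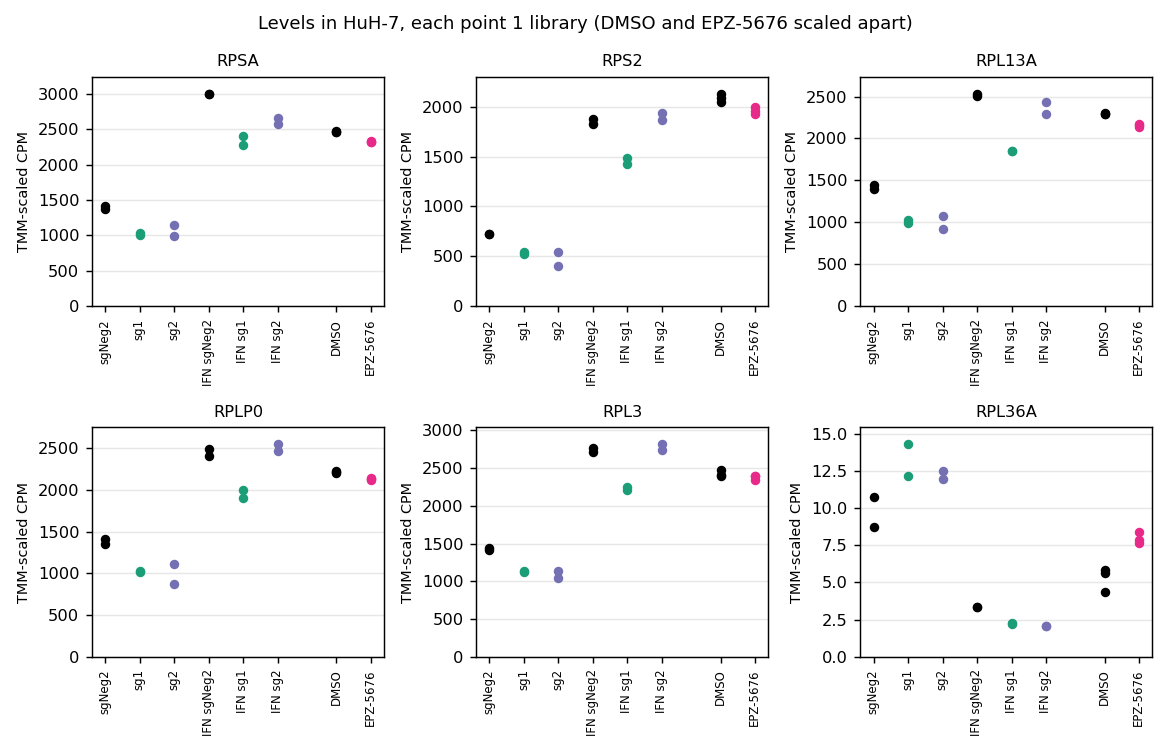
Levels of 6 members in HuH-7 (TMM-scaled CPM, axis from 0), 1 point per library, with black for sgNeg2 and DMSO, green for guide 1, violet for guide 2 and pink for EPZ-5676, which were scaled apart from the guide libraries. RPSA, RPS2, RPL13A, RPLP0 and RPL3 were lower in knockout libraries without IFN, guide 2 with IFN lay near sgNeg2 for RPS2, RPLP0 and RPL3, and RPL36A moved the other way without IFN.

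IFN-treated and untreated sgNeg2 libraries were compared for the response to IFN. Of 82 members 56 rose and 6 fell, where 33.0% of all genes rose and 34.7% fell (67.8% called), with a median of 0.63 over members and -0.06 over all genes. In knockout cells 61 rose and 9 fell (36.4% and 42.2% of genes), with a median of 0.70. RPL26L1, a close relative of RPL26, had 15.3 and 17.1 CPM without IFN and 43.6 and 41.7 CPM with it (1.40 ± 0.12, adjusted p = 4.87e-07), and the groups lay far apart. RPSA rose by 1.10 ± 0.09, RPL11 by 1.16 ± 0.11 and RPL22 by 1.04 ± 0.09. RPS9, a member of few counts, rose by 1.66 ± 0.34.

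The falls included RPS29 and RPL39, with transcripts of 296 and 401 bases. Across the 82 members, which share the libraries, change and transcript length had a Spearman correlation of 0.231 (-0.0685 across 15312 genes). Transcript length as a cause was not tested. RPS29, a small zinc-binding protein of the small subunit, had 284 and 357 CPM without IFN and 109 and 100 CPM with it (-1.62 ± 0.35, adjusted p = 0.00167), and RPL39, among the shortest proteins of the large subunit, had 540 and 593 against 323 and 319 CPM (-0.82 ± 0.17, adjusted p = 0.000746). With the trend on transcript length removed neither passed the test (-0.40 and 0.00), and RPL39 did not pass with the GC trend removed (-0.55). RPL36A fell by 1.54 ± 0.15.

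The IFN groups cannot be told apart from the kind of library, since the untreated libraries held the small RNA and histone counts given above. With those genes left out the median over members was 0.55. From untreated to IFN-treated sgNeg2 libraries the hepatocyte markers went from 14180 and 14239 to 6153 and 6205 CPM (5 of 8 called lower), the fibroblast markers from 122 and 124 to 75.5 and 82.0 CPM (3 of 4 called lower) and the leukocyte markers from 93.9 and 97.7 to 241 and 247 CPM (3 of 4 called higher). The lung epithelial markers went from 10.04 and 13.6 to 4.41 and 4.42 CPM (1 of 2 called lower). The part of these markers in the result was not tested. DMSO libraries, which had received no IFN, gave 7.37% to 7.44% of their counts to members, more than the sgNeg2 libraries with IFN (6.17% and 6.26%). Their gene list held 15899 symbols with at least 1 count each, against 26457 in the guide libraries. Their labels name no guide, and the shares were not compared by a test. The difference between the knockout effects with and without IFN was tested as an interaction. RPL36A alone passed, with -1.03 ± 0.19 (adjusted p = 0.0263; 0.207% of genes were above and 0.298% below 0), from 10.8 and 8.73 CPM in sgNeg2 and 11.96 to 14.3 CPM in the knockout without IFN to the lower knockout values with IFN. That call ended without any of 8 of the 12 libraries, with values from -1.19 to -0.79, and with histone and small RNA genes left out (-0.93). At an unadjusted p under 0.05, 1 member lay above 0 and 4 below, and DESeq2 called 1 in each direction.

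EPZ-5676 gave small changes in both directions, and DOT1L itself had a log2 change of -0.10 ± 0.04. Of 82 members 21 rose and 14 fell, where 15.1% of all genes rose and 18.6% fell (33.7% called), and the median was 0.01 over members and 0.01 over all genes. The falls were small: RPSA had 2457, 2478 and 2463 CPM with DMSO and 2321, 2335 and 2323 CPM with EPZ-5676 (-0.08 ± 0.01, adjusted p = 1.82e-14), and the groups did not overlap. RPL7L1, a relative of RPL7 assigned to the assembly of the large subunit, had 125, 127 and 124 CPM with DMSO and 115, 111 and 113 CPM with the drug (-0.15 ± 0.03, adjusted p = 1.44e-06). RPLP0 fell by 0.05 ± 0.01. RPS29 fell by 0.13 ± 0.04 (adjusted p = 0.0424), a call lost without DMSO replicate 1 (-0.13), without EPZ-5676 replicate 2 (-0.12), with the GC trend removed (-0.11) and with the replicate block (adjusted p = 0.121).

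RPL11, which with RPL5 carries 5S ribosomal RNA and can bind MDM2, rose from 646, 615 and 603 CPM to 683, 709 and 696 CPM (0.16 ± 0.03, adjusted p = 0.00259). RPL28, a large-subunit protein, rose from 425, 414 and 419 CPM to 459, 465 and 461 CPM (0.14 ± 0.02, adjusted p = 7.07e-11). RPL36A rose from 5.64, 4.36 and 5.81 CPM to 7.87, 8.37 and 7.65 CPM (0.59 ± 0.12, adjusted p = 4.43e-05). In none of these 3 genes did the groups overlap.

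The knockout and the drug were set side by side for the 15 members that had fallen in untreated knockout cells. With EPZ-5676 7 of them fell, 1 rose and 7 were not called, where 18.6% of all genes fell and 15.1% rose. RPS2 had -0.52 with the knockout and -0.09 with the drug, RPL13A had -0.50 and -0.09, RPSA had -0.41 and -0.08, and RPLP0 had -0.45 and -0.05. RPL3 had -0.36 with the knockout and -0.03 with the drug, where it did not pass the test. The sets differ in agent, duration and library kind, and the differences between them were not tested.

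In Hepa1-6 cells members rose where they changed. Of 79 members 35 rose and 0 fell, where 14.5% of all 12493 genes rose and 18.3% fell (edgeR; 45 rose and 0 fell at an unadjusted p under 0.05, and 39 rose and 0 fell with DESeq2). The median was 0.14 over members and 0.01 over all genes, and 75 of 79 values were above 0. Rpl22l1, a relative of Rpl22 that can take its place in the ribosome, had 207 and 238 CPM in sgNeg2 and 293, 296, 286 and 324 CPM in the knockout (0.44 ± 0.06, adjusted p = 6.22e-05), without overlap. Rps27a, which is made as a fusion with ubiquitin, had 817 and 865 CPM in sgNeg2 and 1083, 1056, 1041 and 1125 CPM in the knockout (0.37 ± 0.04, adjusted p = 1.07e-07). Rpl31, at the tunnel exit of the large subunit, went from 760 and 874 CPM to 1040, 1037, 1008 and 1126 CPM (0.38 ± 0.05, adjusted p = 8.15e-05), all 4 above both controls. Rpl22 rose by 0.27 ± 0.04, Rps27l by 0.31 ± 0.05, Rpl5 by 0.24 ± 0.04 and Rpl11 by 0.22 ± 0.04. Rpsa had 0.04 ± 0.03, Rpl3 0.05 ± 0.04 and Rplp0 -0.06 ± 0.03, and these 3 did not pass the test. Rpl31 missed the threshold with the guides as separate groups (adjusted p = 0.0532). Without sgNeg2 replicate 1 only 15 members were called and the median was 0.08. Hepatocyte markers summed to 17358 and 17512 CPM in sgNeg2 and 12214 to 12691 CPM in the knockout, with 6 of 7 called lower, and their part in the result was not tested.

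In Hep53.4 nearly the whole class rose by a small amount. Of 79 members 72 rose and 1 fell, where 19.4% of all 12227 genes rose and 19.7% fell, and the median was 0.15 over members and 0.00 over all genes. Rps2 had 6499 and 6490 CPM in sgNeg2 and 8381, 8246, 7914 and 8012 CPM in the knockout (0.33 ± 0.02, adjusted p = 2.21e-12). Rpsa had 4209 and 4140 CPM in sgNeg2 and 5101, 5093, 5040 and 4927 CPM in the knockout (0.27 ± 0.02, adjusted p = 6.06e-11). In both genes the knockout libraries lay well above the controls, which differed little. Rps27a went from 1010 and 851 CPM to 1217, 1203, 1178 and 1254 CPM (0.38 ± 0.07, adjusted p = 0.0117), a call that missed the threshold without guide 2 replicate 2 (0.37) and with the guides as separate groups (0.38). Rpl10, which joins the large subunit late in its maturation, rose by 0.12 ± 0.02, Rpl3 by 0.17 ± 0.02 and Rplp0 by 0.19 ± 0.02. Rpl7l1 was the member that fell, from 150 and 148 CPM to 118, 123, 126 and 123 CPM (-0.28 ± 0.03, adjusted p = 8.22e-08), with all 4 knockout libraries below the controls. Rpl5 did not pass the test (0.06 ± 0.02, adjusted p = 0.0719). Hepatocyte markers summed to 919 and 928 CPM in sgNeg2 and 822 to 898 CPM in the knockout, with 1 of 4 tested called higher and 1 lower. Fibroblast markers summed to 14.6 and 15.2 CPM against 10.2 to 11.4 CPM (1 of 3 called lower), lung epithelial markers to 3.07 and 4.18 CPM against 9.50 to 9.77 CPM (1 of 3 called higher) and leukocyte markers to 3.87 and 4.74 CPM against 5.77 to 7.54 CPM (1 of 2 called higher). No list overlapped between the groups, but the share of all genes without overlap was not counted. The fibroblast, lung epithelial and leukocyte sums were at most 15.2 CPM. The part of these markers in the result was not tested.

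In LLC the class fell. Of 79 members 69 fell and 2 rose, where 17.5% of all 12225 genes fell and 16.0% rose, and the median was -0.22 over members and 0.01 over all genes. Rpl10 had 3719 and 3644 CPM in sgNeg2, 2709 and 2715 CPM with guide 1 and 3051 and 2984 CPM with guide 2 (-0.38 ± 0.05, adjusted p = 1.21e-05). Rpl3 had 4072 and 4047 CPM in sgNeg2, 3035 and 3100 CPM with guide 1 and 3460 and 3453 CPM with guide 2 (-0.34 ± 0.05, adjusted p = 7.75e-05). In both genes the guides fell in the same order, guide 1 lowest, and neither overlapped the controls. Rpl41, the shortest ribosomal protein, fell by 0.35 ± 0.06, Rpsa by 0.30 ± 0.05, Rpl22l1 by 0.32 ± 0.06 and Rps6, the substrate of the S6 kinases, by 0.21 ± 0.04.

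Rps27l, a relative of Rps27 known as a target of p53, rose in LLC from 146 and 146 CPM to 161, 159, 165 and 161 CPM, without overlap (0.12 ± 0.04, adjusted p = 0.0113). That call ended without either sgNeg2 library (0.12 and 0.11). Rpl34, one of the members of few counts, had 1.46 and 1.64 CPM in sgNeg2 and 2.85, 2.51, 2.25 and 2.36 CPM in the knockout (0.66 ± 0.19, adjusted p = 0.0103), which missed the threshold without sgNeg2 replicate 1 (0.58). Rpl7l1 had -0.02 ± 0.04 and did not pass the test. Fibroblast markers summed to 999 and 1024 CPM in sgNeg2 and 1430 to 1456 CPM in the knockout, with 5 of 6 called higher. Col3a1 made up most of this sum, and Col1a1, Col1a2, Dcn and Lum had at most 1.65 CPM. Lung epithelial markers summed to 565 and 574 CPM against 618 to 654 CPM, and leukocyte markers to 5.13 and 6.55 CPM against 2.85 to 3.80 CPM. Hepatocyte markers summed to 0.168 and 0.448 CPM against 0.467 to 0.744 CPM. The part of these markers in the result was not tested. Without sgNeg2 replicate 1 the number of members called in LLC was 37, with a median of -0.18. Guide 2 libraries lay above guide 1 libraries: 31 members were higher and 0 lower, where 1.56% of genes were higher and 1.05% lower, 2.61% in all (median 0.13; the count was 12 without guide 1 replicate 1, 20 without guide 1 replicate 2, 20 without guide 2 replicate 1, 21 without guide 2 replicate 2 and 60 with no filter). Dot1l had 30.3 and 28.5 CPM with guide 1 and 31.1 and 32.0 CPM with guide 2.

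**Figure D3:**
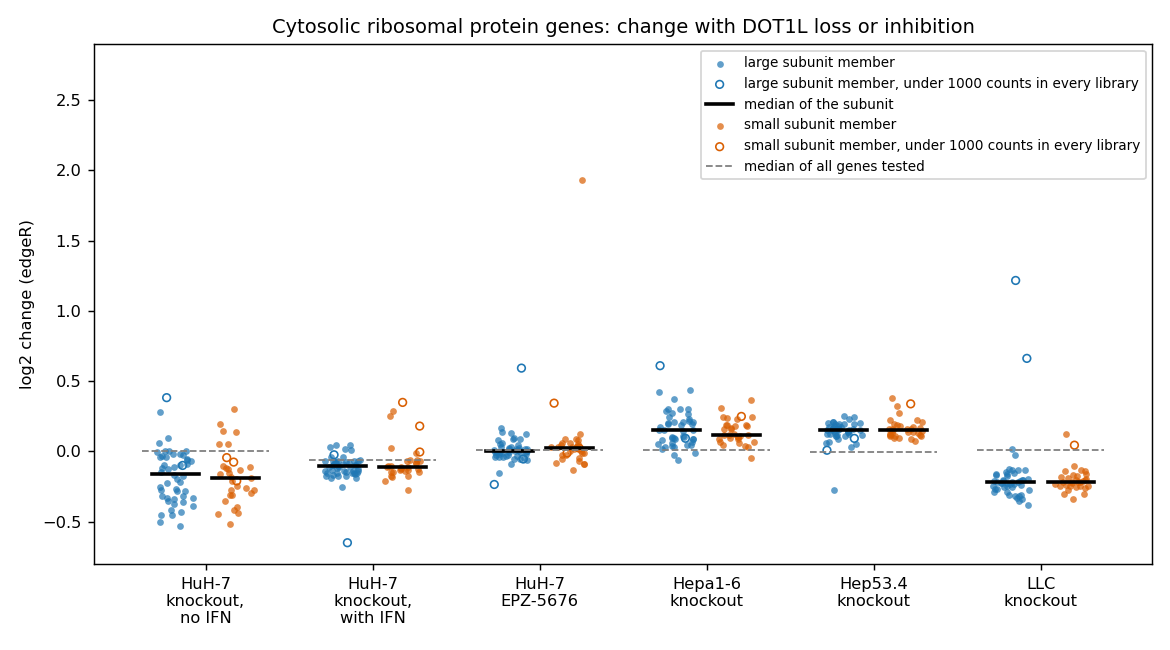
Log2 change of each member tested in 6 comparisons, large subunit in blue and small in orange, with the median of each subunit as a black bar and that of all genes as a dashed line; open circles are members under 1000 counts in every library. The medians lay at 0.15 and 0.12 in Hepa1-6, 0.15 and 0.16 in Hep53.4 and -0.22 and -0.22 in LLC.

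The 3 mouse lines were then fitted together to test whether the knockout effects differed. Between Hepa1-6 and LLC the effect was higher in Hepa1-6 for 67 of 79 members and lower for 0, where 9.28% of all 14195 genes were higher and 15.3% lower (edgeR; 71 and 0 at an unadjusted p under 0.05, and 70 and 0 with DESeq2). The largest differences were Rpl22l1 (0.73 ± 0.10, adjusted p = 1.77e-05), Rpl39 (0.52 ± 0.17, adjusted p = 0.0395) and Rps27a (0.52 ± 0.08, adjusted p = 1.97e-05). Rpl39 missed the threshold without any of 8 of the 12 libraries, down to 0.30 without Hepa1-6 sgNeg2 replicate 1. Between Hep53.4 and LLC 67 members were higher in Hep53.4 and 1 was lower (13.4% and 15.8% of genes), led by Rps2 (0.58 ± 0.06, adjusted p = 5.33e-09), Rpsa (0.55 ± 0.05, adjusted p = 1.11e-09) and Rps27a (0.54 ± 0.08, adjusted p = 7.57e-06). The medians of the differences were 0.32 and 0.35 over members, against -0.04 over all genes in both. These contrasts share the LLC libraries.

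Hepa1-6 and Hep53.4 differed for 11 members, 5 higher in Hepa1-6 and 6 lower, where 10.2% and 14.5% of genes were. Rps2 (-0.27 ± 0.06), Rplp0 (-0.27 ± 0.05) and Rpsa (-0.24 ± 0.05) had the lower effect in Hepa1-6, and Rpl22l1 (0.28 ± 0.10), Rpl7l1 (0.24 ± 0.06) and Rpl31 (0.22 ± 0.07) the higher (adjusted p from 0.000192 to 0.0401). Rpl31 missed the threshold with the guides as separate groups (0.22). Rpl22l1 and Rpl31 missed it without Hepa1-6 sgNeg2 replicate 1 (0.18 and 0.12) and without Hep53.4 sgNeg2 replicate 1 (0.26 and 0.20), and Rpl22l1 also without Hepa1-6 guide 1 replicate 2 (0.28), guide 2 replicate 2 (0.24) or Hep53.4 sgNeg2 replicate 2 (0.30). The count of 11 ranged from 6 without Hep53.4 sgNeg2 replicate 1 to 21 without Hepa1-6 sgNeg2 replicate 2.

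Read gene by gene, 29 of 79 members rose in both liver lines and fell in LLC, as did 1.35% of the 10564 genes tested in all 3 lines. Of the members 66 rose in Hep53.4 and fell in LLC, where 7.14% of those genes did. Rps27l was the member that rose in all 3 lines (0.824% of genes), and its effect in LLC was not called different from that in Hepa1-6 (0.16 ± 0.06, adjusted p = 0.0601) or Hep53.4 (0.07 ± 0.06, adjusted p = 0.456). The first of these differences passed with RLE scaling, DESeq2, guides as groups or the replicate block (0.18, 0.18, 0.16 and 0.16). Across the 79 members the Spearman correlation of the changes in Hepa1-6 and Hep53.4 was -0.051, and the values were 0.396 between Hepa1-6 and LLC and -0.189 between Hep53.4 and LLC. Members are not independent of each other in such a correlation. Of the 15 members that fell in HuH-7 without IFN, 12 had a tested mouse counterpart of the same name. Of these 10 fell in LLC, 5 rose in Hepa1-6 and 12 rose in Hep53.4. Over all 79 members 69 fell in LLC, 35 rose in Hepa1-6 and 72 rose in Hep53.4, so the 12 lay near the rates of the class. The shares of all genes were 17.5%, 14.5% and 19.4%.

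**Figure D4:**
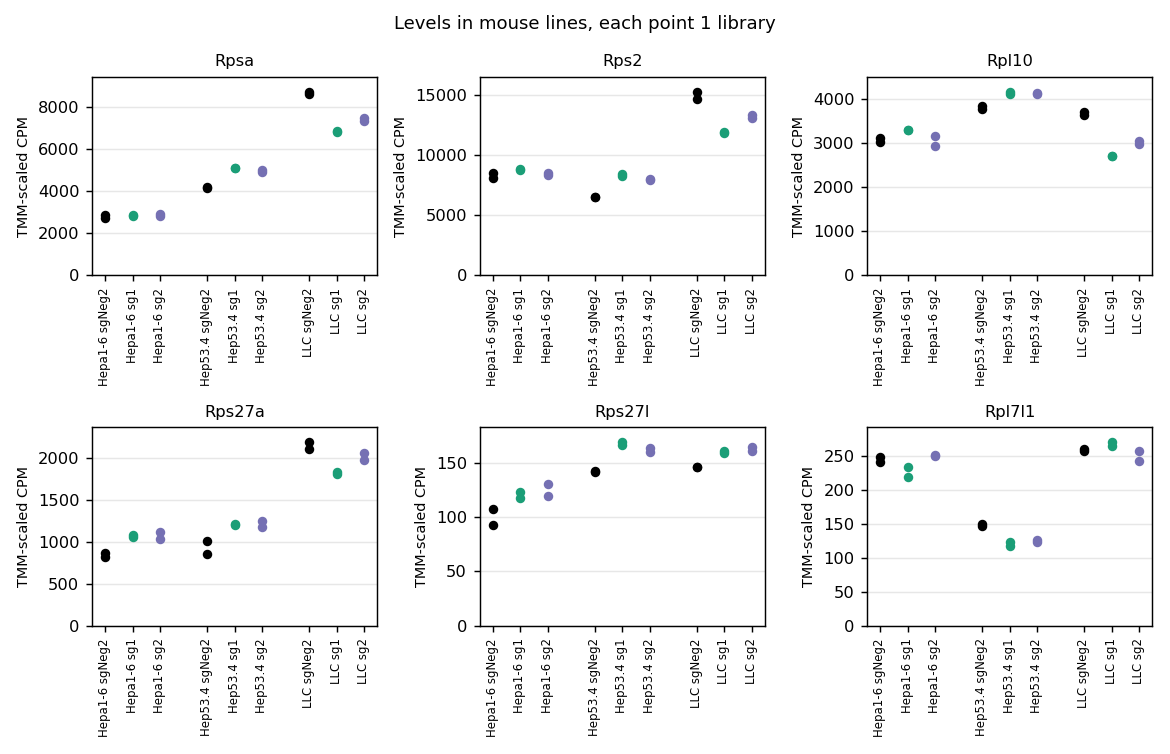
Levels of 6 members in the mouse lines (TMM-scaled CPM, axis from 0), 1 point per library, with black for sgNeg2, green for guide 1 and violet for guide 2. Rpsa and Rps2 rose in Hep53.4 and fell in LLC, Rps27l lay above its controls in every line, and Rpl7l1 was below its controls in Hep53.4.

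Paralogue pairs did not always move together. Rpl22 and Rpl22l1 both rose in Hepa1-6 (0.27 and 0.44) and in Hep53.4 (0.16 and 0.15) and both fell in LLC (-0.17 and -0.32); the fall of Rpl22 in LLC was not called without sgNeg2 replicate 1 (-0.15). With IFN in HuH-7 sgNeg2 cells RPL22 rose by 1.04 and RPL22L1 did not pass the test. RPL26 and RPL26L1 rose by 0.36 and 1.40 with IFN, the first of which missed the threshold without any of the 4 libraries compared (0.31 to 0.38) and with histone and small RNA genes left out (0.28). RPL39L, a relative of RPL39 with highest levels in testis, rose by 1.02 with IFN while RPL39 fell. RPL3L and RPL10L, relatives of RPL3 and RPL10 known from muscle and testis, had at most 3 counts in any HuH-7 library.

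The control cells of the mouse lines differed in the make-up of the class, as they did over all genes, of which 76.2% to 81% were called. Rps7, a small-subunit protein, had 366 and 400 CPM in Hepa1-6, 1089 and 1058 CPM in Hep53.4 and 2431 and 2303 CPM in LLC. Its 3 levels did not overlap, and it was the largest difference between Hepa1-6 and LLC (-2.63 ± 0.06, adjusted p = 2.24e-28). Rpsa rose in the same order, with 2730 and 2862, 4209 and 4140, and 8747 and 8653 CPM. Rps14 ran the other way, with 4281 and 4204 CPM in Hepa1-6, 3772 and 3696 in Hep53.4 and 2548 and 2446 in LLC (Hepa1-6 over LLC 0.76 ± 0.07). Rpl22l1 was also highest in Hepa1-6 (0.93 ± 0.08 over LLC) and Rpl22 lowest there (-1.73 ± 0.05).

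In all, 12 members were higher and 56 lower in Hepa1-6 than in LLC (41.0% and 40.0% of genes, 81.0% in either direction; median -0.44), 12 higher and 52 lower in Hepa1-6 than in Hep53.4 (38.2% and 38%, 76.2% in either; median -0.36), and 25 higher and 36 lower in Hep53.4 than in LLC (39.6% and 38.5%, 78.1% in either; median -0.06). Rpl39 (-1.58 ± 0.14), Rpl37 (-1.58 ± 0.19) and Rps7 (-1.49 ± 0.05) were furthest below Hep53.4 in Hepa1-6. Rps29 was also lower in Hepa1-6 than in LLC (-1.96 ± 0.18). Rpl29 (-1.48 ± 0.05), Rps27a (-1.21 ± 0.06) and Rps2 (-1.20 ± 0.05) were furthest below LLC in Hep53.4, and Rpl37 (0.69 ± 0.18) and Rpl15 (0.60 ± 0.04) were among those furthest above it. The 3 contrasts share libraries in pairs.

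The medians of the large and small subunit lay close to each other within each line, and their difference was not tested. Median log2 changes were -0.16 and -0.19 in untreated HuH-7, 0.15 and 0.12 in Hepa1-6, 0.15 and 0.16 in Hep53.4 and -0.22 and -0.22 in LLC. In Hep53.4 41 of 47 large-subunit members and 31 of 32 small-subunit members rose (19.4% of all genes). In LLC 41 of 47 and 28 of 32 fell (17.5% of all genes). The ratio of large to small subunit counts was 1.79 to 1.94 in HuH-7 libraries, 1.20 to 1.22 in Hepa1-6, 1.29 to 1.32 in Hep53.4 and 1.11 to 1.12 in LLC. The ratio describes the deposited counts, in which members of few counts take part.

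Other genes of the translation machinery were read from lists drawn up for this purpose. One list held 15 genes of the TOP class, translation factors together with TPT1, NAP1L1, HNRNPA1 and NPM1. Of these 15, 12 rose and 0 fell in Hep53.4 (19.4% and 19.7% of all genes). In LLC 0 rose and 13 fell (16% and 17.5%). In Hepa1-6 5 rose and 1 fell (14.5% and 18.3%), and in untreated HuH-7 0 rose and 4 fell (6.95% and 4.38%). The medians were 0.09, -0.20, 0.11 and -0.13 in this order. Eef2, the translocation factor, fell by 0.35 ± 0.06 in LLC and rose by 0.14 ± 0.02 in Hep53.4, and EEF2 fell by 0.51 ± 0.13 in HuH-7. Eif3f, a subunit of an initiation factor, fell by 0.51 ± 0.04 in LLC and rose by 0.20 ± 0.03 in Hep53.4. Fau, Rpl36al and Gnb2l1 (also called Rack1), ribosomal genes outside the symbol rule, rose in Hep53.4 (0.08 to 0.15) and fell in LLC (-0.23 to -0.18).

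The snoRNA host genes, noncoding or coding transcripts with a TOP start whose introns carry small nucleolar RNAs, had medians of 0.37 in Hepa1-6, 0.39 in Hep53.4 and -0.22 in LLC. In Hep53.4 7 of 8 rose (19.4% of all genes), with Snhg5 at 0.68 ± 0.08 and Snhg1 at 0.64 ± 0.04. In Hepa1-6 4 of 8 rose (14.5% of all genes), with Gas5 at 0.55 ± 0.06. In LLC 4 fell and 1 rose (17.5% and 16.0% of all genes), with Snhg12 at -0.58 ± 0.06 and Snhg8 at 0.16 ± 0.05. Mitochondrial ribosomal protein genes rose in 25 of 77 cases and fell in 2 in each liver line. Of all genes 14.5% rose and 18.3% fell in Hepa1-6, and 19.4% rose and 19.7% fell in Hep53.4. In LLC the mitochondrial genes rose in 3 cases and fell in 19 (16.0% and 17.5% of all genes). Medians were 0.13, 0.07 and -0.05 in Hepa1-6, Hep53.4 and LLC. Of 39 ribosome biogenesis factors, 12 rose and 7 fell in Hepa1-6 (14.5% and 18.3% of all genes), 4 rose and 18 fell in Hep53.4 (19.4% and 19.7%), 16 rose and 3 fell in LLC (16.0% and 17.5%), and 7 rose and 0 fell in untreated HuH-7 (6.95% and 4.38%). Their medians were 0.06, -0.11, 0.10 and 0.12. Whether their changes differ from those of the ribosomal proteins was not tested.

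Myc was lower in the knockout of Hep53.4 (from 166 and 164 CPM to 138 to 144 CPM, -0.23 ± 0.03, adjusted p = 9.43e-07) and of LLC (497 and 487 CPM to 381 to 430 CPM, -0.30 ± 0.04, adjusted p = 3.22e-05). MYC was higher in the knockout of untreated HuH-7 (19.2 and 19.7 CPM to 31.4 to 33.2 CPM, 0.73 ± 0.09) and with EPZ-5676 (22.6 to 22.9 CPM to 31.0 to 32.7 CPM, 0.49 ± 0.06). Its level and that of the ribosomal protein genes moved in the same direction in LLC and in opposite directions in Hep53.4 and untreated HuH-7. With EPZ-5676 MYC rose while ribosomal protein genes were called in both directions. Levels of MYC in the remaining knockout comparisons are not given here. The part of MYC in the changes of the ribosomal protein genes was not tested.

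**Figure D5:**
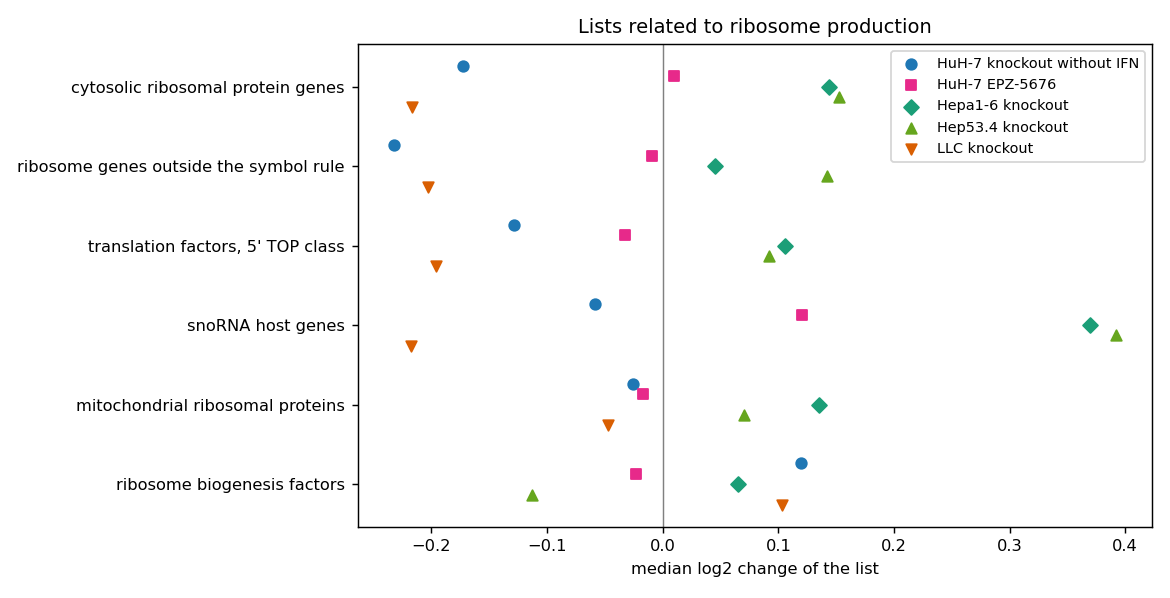
Median log2 change of each list (horizontal axis) in 5 comparisons, each with its own symbol. The TOP-class list is labelled as translation factors. Ribosomal protein genes, TOP-class genes and snoRNA host genes lay below 0 in LLC and above 0 in both mouse liver lines. Ribosome biogenesis factors lay above 0 in LLC (0.10) and below 0 in Hep53.4 (-0.11).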

How the data were processed

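RNA-seq gene counts of the human line HuH-7 and of 3 mouse lines were used as the authors deposited them, as whole-number counts per gene symbol, unnormalized. The submitters' processing notes name Trim Galore, HISAT2 2.2.1, SAMtools 1.9 and DESeq2 1.36.0 with the builds hg38 and mm10. The roles and parameters of these tools, and the gene annotation, were not stated there. Levels are CPM computed with TMM factors. Tests used edgeR 4.0.16 (quasi-likelihood F test, R 4.3.3) after filterByExpr (minimum count 10, total 15), with Benjamini-Hochberg adjustment over all genes and a threshold of 0.05. One fit held the 12 guide libraries of HuH-7, another the inhibitor libraries, each mouse line had its own, and all 18 mouse libraries were joined for differences between lines. DESeq2 1.42.0, other scaling, filters and designs, GC and length trends and each library left out were alternatives. The fits were tested on simulated data. Promoters came from RefSeq tables (GRCh38.p14).

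Members and gene lists were chosen with earlier results of these data known. Named genes were, per comparison, the 3 members with the largest called rise and fall, plus a fixed panel of paralogue pairs and RPL5, RPL11, RPS6, RPSA and RPLP0. A few members outside that rule were named after their values were seen. SE is the log2 change divided by the square root of F. Results of a few genes that the rule would name are not reported here.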

Additional observations from a re-analysis of the deposited data

Results flagged for a closer look

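In HuH-7 the knockout effect on RPL36A differed between cells with and without IFN (-1.03). Between Hepa1-6 and Hep53.4 the knockout effect was higher in Hepa1-6 for Rpl22l1 (0.28), Rpl7l1 (0.24), Rpl31 (0.22) and Rpl5 (0.18) and lower for Rps2 (-0.27), Rplp0 (-0.27) and Rpsa (-0.24). Between Hepa1-6 and LLC it was higher in Hepa1-6 for Rpl22l1 (0.73), Rpl39 (0.52), Rps27a (0.52), Rpl5 (0.43), Rpl10 (0.41), Rpl22 (0.41), Rpl3 (0.35), Rpl11 (0.34), Rpsa (0.32), Rps6 (0.27) and Rpl7 (0.18). Between Hep53.4 and LLC it was higher in Hep53.4 for Rps2 (0.58), Rpsa (0.55), Rps27a (0.54), Rpl3 (0.49), Rpl10 (0.48), Rpl22l1 (0.45), Rplp0 (0.39), Rpl22 (0.31), Rpl11 (0.30), Rps6 (0.30), Rpl5 (0.26) and Rpl7 (0.23) and lower for Rpl7l1 (-0.27). The call of Rpl5 between Hepa1-6 and Hep53.4 was lost without sgNeg2 replicate 1 of Hepa1-6 (0.13) or of Hep53.4 (0.17), and that of Rpl7 between Hepa1-6 and LLC without sgNeg2 replicate 1 of Hepa1-6 (0.16) or of LLC (0.16). Each of these 32 is a difference of log2 changes that passed its own test.

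In 3 of 52 sets of 4 values examined, 1 library stood apart from the other 3 of its group. For a single set chance alone gives about 1 in 20. The sets were summary values and called members read in the same knockout libraries, so they are not independent. Each group also holds both guides. HuH-7 guide 2 replicate 2 without IFN was low in RPS2 (407 CPM) and RPL3 (1050 CPM), and Hepa1-6 guide 2 replicate 1 was low in the ratio of large to small subunit counts (1.20).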

How the results depend on the processing

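Replicate numbers were not taken to pair libraries: correlations of same-numbered deviations ran from -0.0611 to 0.0605 in the guide groups and from 0.0172 to 0.0361 with DMSO and EPZ-5676. Counts of members called under other settings, here and above, mostly stand without the share of all genes called in the same fit. A changed count therefore cannot be told apart from a changed call rate over all genes. With a replicate block 10 members were called in untreated HuH-7, 42 in Hepa1-6, 73 in Hep53.4 and 66 in LLC. The block moved the median of Hepa1-6 over LLC in sgNeg2 cells to -0.51. Among named genes it ended 6 calls: RPL8 in untreated HuH-7 (adjusted p = 0.0604), RPS29 with EPZ-5676 (0.121), Rps6 in Hepa1-6 (0.0514), Rpl11 in LLC (0.0681) and Rpl7 in Hepa1-6 over Hep53.4 and over LLC (0.0816 and 0.0527). It gained 1, Rps27l in Hepa1-6 against LLC (0.0348).

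In untreated HuH-7 knockout cells the number of members called was 27 with DESeq2, 40 with guides as groups, 31 with only the libraries compared, 33 with the GC trend removed, 30 with the length trend removed and 26 without histone and small RNA genes, and 2 to 14 with 1 library left out. The median was -0.23, -0.22 and -0.22 under the last 3 of these settings and -0.23 to -0.17 with 1 library left out. With IFN the count was 21 with guides as groups, 0 with only the libraries compared, 19 with the GC trend removed, 1 without histone and small RNA genes and 0 to 3 with 1 library left out. Its median was -0.050 with only the libraries compared, -0.053 without histone and small RNA genes and -0.14 to -0.054 with 1 library left out.

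The median with IFN in sgNeg2 cells was 0.58 with RLE scaling, 0.58 with DESeq2, 0.56 with the GC trend removed, 0.67 with the length trend removed, 0.55 without histone and small RNA genes and 0.56 to 0.65 with 1 library left out, and in knockout cells 0.66 to 0.77. The interaction had 2 members called with DESeq2, 7 with guides as groups, 4 with the GC trend removed, 0 without histone and small RNA genes and 0 to 1 with 1 library left out. Its median was 0.17 with RLE scaling, 0.17 with DESeq2, 0.21 without histone and small RNA genes and 0.039 to 0.19 with 1 library left out. With EPZ-5676 the median was -0.027 with the length trend removed.

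With 1 library left out, 15 to 44 members were called in Hepa1-6 (median 0.081 to 0.20) and 37 to 74 in LLC (-0.26 to -0.18), and the median in Hep53.4 was 0.13 to 0.18. Between Hepa1-6 and Hep53.4 19 were called with no filter, 21 with guides as groups and 6 to 21 with 1 library left out (median -0.090 to 0.019), and the median against LLC was 0.27 to 0.39. In sgNeg2 cells the medians were -0.42 to -0.29 for Hepa1-6 over Hep53.4, -0.54 to -0.37 for Hepa1-6 over LLC and -0.12 to -0.063 for Hep53.4 over LLC. For guide 2 over guide 1 in LLC 60 were called with no filter and 12 to 21 with 1 library left out.

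Some directions turned. In knockout cells with IFN RPL22L1 and RPS27L were at 0.25 and 0.10 with the GC trend removed, and RPS29 and RPS27L at 0.20 and 0.16 with the length trend removed. RPL39 in sgNeg2 cells was at 0.0029 with the length trend removed. The large minus small subunit median was -0.054 for IFN in knockout cells with the GC trend removed, -0.035 for IFN in sgNeg2 cells and 0.010 for EPZ-5676 with the length trend removed, -0.071 to 0.011 for the interaction and -0.030 to 0.037 in Hepa1-6 with 1 library left out. Uncalled values crossed 0 with 1 library left out for Rpl3 (-0.0034 to 0.098) and Rpl7l1 (-0.051 to 0.0073) in Hepa1-6 and Rpl7l1 in LLC (-0.043 to 0.0039). The causes of these shifts were not tested.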
